A study of Homo sapiens with 32 samples.

Results

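The transcriptome of HEK293 cells exposed to AngII alone for 6 h was compared with that of untreated cells of the same time point, gene by gene. HEK293 is a human embryonic kidney line. The comparison used 8 of the 32 RNA sequencing libraries of the series, 4 labelled AngII and 4 labelled Control, chosen by their treatment label and their length of treatment. The table listed 57773 genes, and 18618 of them had enough counts to be tested. AngII was given at 1 nM in serum-free medium, and the other 8 libraries of this time point came from cells treated with EGF at 10 µg/L or with EGF and AngII together. All groups, the controls included, had been transiently transfected with an expression plasmid for the AT1 receptor (AT1R, gene AGTR1), so receptor RNA came from a plasmid carried by an unknown part of the cells. The labels do not say that libraries of a group came from separate cultures, so p-values measure the spread between these libraries, which may be technical.

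AngII is the effector peptide of the renin-angiotensin system. Its AT1 receptor activates phospholipase C through Gq proteins, raising inositol trisphosphate, calcium and protein kinase C activity. It also recruits arrestins and can transactivate the EGF receptor. Serum response factor (SRF), which binds the CArG box, lies downstream of both receptors. Together with ERK-activated ternary complex factors it drives immediate early genes such as EGR1 and FOS, and together with actin-sensing MRTF cofactors it drives cytoskeletal genes. Immediate early RNAs are typically brief, so a single time point of several hours shows what is left of a response or what has followed it.

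The promoter windows below were chosen because they hold the DNA element that links AT1R and EGF receptor signalling to transcription, and because the data set limits on the genes behind them. Each was read from the RefSeq promoter sequences of build GRCh38.p14, 5′ to 3′ on the strand of the gene, and capitals mark the CArG box. EGR1 carries a pair of boxes that start 105 and 83 bases before its start site, at chr5:138465364-138465393 and chr5:138465386-138465415 (windows, plus strand). SRF carries a pair in its own promoter, at chr6:43171229-43171258 and chr6:43171249-43171268 on the plus strand, the second starting 10 bases before the start site. ACTG1, encoding gamma-actin, has one at chr17:81512874-81512903 on the minus strand. FLNA, encoding the actin cross-linker filamin A, has one at chrX:154374709-154374738 on the minus strand. TPM4, encoding a tropomyosin, has one at chr19:16067355-16067384 on the plus strand. RCAN1, encoding an inhibitor of calcineurin, has one at chr21:34615333-34615362 on the minus strand.
EGR1, distal box: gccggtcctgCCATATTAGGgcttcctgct
EGR1, proximal box: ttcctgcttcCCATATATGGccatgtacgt
SRF, distal box: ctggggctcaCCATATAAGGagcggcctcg
SRF, proximal box: agcggcctcgCCATAAAAGG
ACTG1: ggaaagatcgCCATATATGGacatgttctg
FLNA: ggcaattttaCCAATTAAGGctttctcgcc
TPM4: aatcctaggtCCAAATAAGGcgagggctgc
RCAN1: gaattccgttCCTTTATTGGccccgtctcc

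No gene was called regulated by AngII alone: 0 of 18618 genes (0%) passed an FDR below 0.05 with a fold change above 1.5 and a mean above 5 FPM. FPM are counts per 1000000 of the TMM-scaled library total, averaged over control libraries for lower and over AngII libraries for higher genes. The smallest adjusted p in edgeR's quasi-likelihood test was 0.987. At an unadjusted p below 0.05, 411 genes (2.21%) had higher and 434 genes (2.33%) had lower values with AngII. Every AngII library lay above every control library for 182 genes (0.978%) and below for 216 genes (1.16%). DESeq2, which tested 42563 genes, also called 0. It had 880 genes (2.07%) at an unadjusted p below 0.05, against 4.54% of the 18618 genes in edgeR. A p above the threshold does not show that 2 levels are equal, and the results that follow therefore give the interval of each difference.

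The largest part of the measured transcriptome could be held to a small change. The 95% interval of the fold change lay inside 1.5-fold in either direction for 11290 of the tested genes (60.6%), and inside 2-fold for 15697 (84.3%). With intervals widened to hold for all tested genes at once, 2250 genes (12.1%) stayed inside 1.5-fold and 8402 (45.1%) inside 2-fold. The median size of the log2 fold change was 0.11, and the median half-width of its interval was 0.33. The change a gene would have had to show to reach a p of 0.05 divided by the 18618 tests was 1.964-fold at the median gene.

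How tight the limit was depended on abundance. Among the 2290 genes above 100 FPM, 2239 were inside 1.5-fold and the change needed was 1.398-fold. For the 6413 genes between 20 and 100 FPM these values were 6236 genes and 1.58-fold, and for the 4330 genes between 5 and 20 FPM they were 2683 genes and 2.25-fold. Below that the data said little about moderate effects. Of 5512 genes between 1 and 5 FPM, 132 were inside 1.5-fold and 2786 inside 2-fold, with 4.62-fold needed. Of the 73 tested genes at 1 FPM or less, 0 were inside 2-fold and 13.1-fold was needed.

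Where the mean over the control and AngII libraries together was above 5 FPM, a change of more than 2-fold lay outside nearly every gene's own 95% interval. These intervals do not hold for all genes at once. Widened to do so, 586 of 4330 genes (13.5%) between 5 and 20 FPM stayed inside 2-fold. Between 20 and 100 FPM 5643 of 6413 did, and above 100 FPM 2173 of 2290. Of the 13033 genes above 5 FPM, 11158 (85.6%) had single-gene intervals inside 1.5-fold and 12911 (99.1%) inside 2-fold, and 42 had a fitted change above 1.5-fold. By this mean 3 had a fitted change above 2-fold, and they are named although the naming rule did not choose them. DPM3, encoding a subunit of dolichol-phosphate mannose synthase, measured 7.06 ± 3.04 FPM in control and 3.23 ± 0.693 FPM in AngII libraries (SD, n = 4). CFB, encoding complement factor B, measured 7.83 ± 4.01 and 3.67 ± 0.412 FPM. The lincRNA RP11.166O4.6 measured 5.42 ± 2.05 and 11.01 ± 2.64 FPM. The plot of change against abundance shows the narrowing of the cloud from rare to abundant genes.

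**Figure D1:**
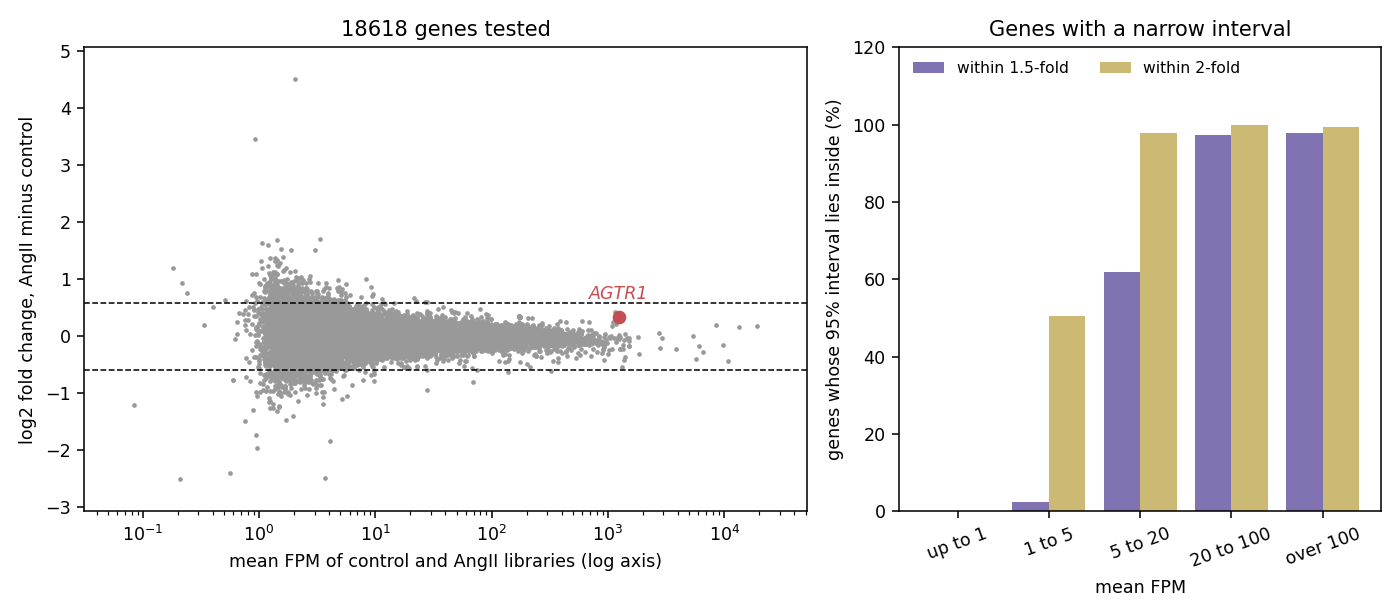
Left, log2 fold change of AngII against Control (fitted, y axis) against mean FPM on a log axis for the 18618 tested genes, with dashed lines at 1.5-fold. Right, percent of genes in each FPM class whose 95% interval lies inside 1.5-fold or 2-fold: 2.39% of genes between 1 and 5 FPM but 97.8% of genes above 100 FPM lie inside 1.5-fold.

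Among gene classes, protein-coding genes carried the tightest limits. Of 13237 tested, 235 had higher and 318 lower values at p below 0.05, 10156 (76.7%) were inside 1.5-fold and 12315 (93.0%) inside 2-fold, and the change needed was 1.69-fold at the median. Of 2258 pseudogenes, 547 were inside 1.5-fold and 1473 inside 2-fold. Of 1329 antisense transcripts, which cannot be separated here from their sense partners because the strand setting of the counting was not stated, 218 and 818 were. Of 907 lincRNAs, 223 and 603 were, and 36 (3.97%) had higher against 9 (0.992%) lower values at p below 0.05, beside 2.21% and 2.33% of all genes.

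Small RNA genes were beyond the reach of these libraries. One of 76 miRNA genes, 1 of 97 snoRNA genes, 1 of 111 genes of the misc_RNA class and 0 of 50 snRNA genes had intervals inside 1.5-fold. The snRNA genes would have needed a change of 8.31-fold. For these classes 26, 36, 43 and 6 genes were inside 2-fold.

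Of all tested genes, AGTR1 itself had the smallest p. This gene, at chr3:148415571-148460795 in build GRCh37 on the plus strand, measured 950, 1156, 1086 and 1191 FPM in Control libraries 1 to 4. In AngII libraries 1 to 4 it measured 1319, 1318, 1399 and 1515 FPM. All AngII libraries lay above all control libraries. The means were 1096 ± 106 and 1388 ± 93.2 FPM (SD, n = 4), a log2 fold change of 0.34 (SE 0.076) with a 95% interval of 1.14-fold to 1.41-fold.

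The AGTR1 difference did not pass the correction over all genes. Its unadjusted p was 1.7e-04 and its adjusted p 0.987 in edgeR's quasi-likelihood test. An exact two-sided permutation test of the 8 values gave p = 0.0286, the smallest it can give, and 0.4 after adjustment over the 14 genes tested this way. The log2 fold change was 0.32 (SE 0.10) within the first library series (library numbers up to 8) and 0.36 (SE 0.10) within the second. Leaving out any 1 library gave 0.28 to 0.38. The adjusted p was 0.0019 in the edgeR fit without a low-count filter and 0.47 or above in the other alternatives where it was taken, 0.47 being that of DESeq2. It was not taken from the exact test or robust estimation, whose smallest adjusted p over all genes were 0.197 and 0.702. EGF minus control was 0.00 (SE 0.076) for AGTR1, which was 0.34 (SE 0.076) higher in AngII than in EGF libraries with an adjusted p of 0.0095, a change below 1.5-fold. Since the plasmid supplies AGTR1 RNA, its amount per library and the response of a cellular gene cannot be told apart.

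**Figure D2:**
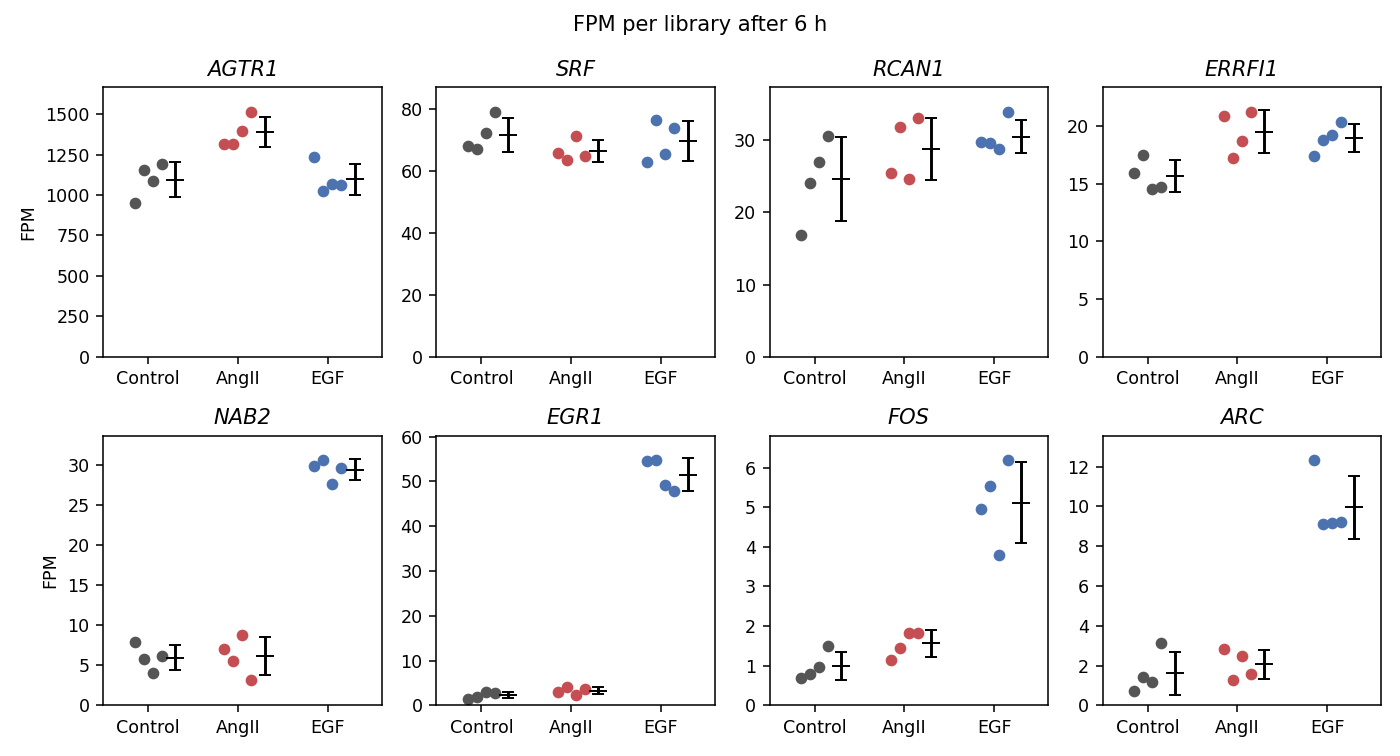
FPM (y axis, linear, from 0) of 8 genes in each library of the Control, AngII and EGF groups, with points for libraries and bars for mean ± SD (n = 4). AngII points of AGTR1 lie above all control points, at 1318 to 1515 FPM. For EGR1, FOS, ARC and NAB2 the AngII points overlap control points and the EGF points stand higher. The EGF points set the axes of these panels, which compress differences between AngII and control.

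The angiotensin system had few measurable genes. Of 13 listed, AGTR1 among them, 8 could be tested, and 0 were called. AGTR2 and MAS1, receptors for AngII and angiotensin 1-7, had no count in any of the 8 libraries. LNPEP, the insulin-regulated aminopeptidase that binds angiotensin IV, measured 98.3, 119, 116 and 112 FPM in control and 127, 126, 117.9 and 139 FPM in AngII libraries. Its log2 fold change was 0.19 (SE 0.077, unadjusted p 0.020) and its interval reached 1.28-fold. The list's median was 0.134, against 0.002 over all tested genes, and 5 of the 8 were inside 1.5-fold.

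The machinery that carries the AT1R signal was measured at good depth and could be held close to control. Of 32 tested genes of AT1 receptor signalling, 0 were called, 1 had higher and 1 lower values at p below 0.05, and the median was 0.012. All 7 G protein genes were inside 1.5-fold, as were 9 of 10 phospholipase, inositol trisphosphate receptor and protein kinase C genes and 5 of 7 arrestin and receptor kinase genes. ARRB1, encoding beta-arrestin 1, which desensitizes the receptor, measured 20.8, 15.8, 16.3 and 16.5 FPM in control and 12.7, 12.8, 14.2 and 12.6 FPM in AngII libraries. The groups did not overlap, and its log2 fold change was -0.39 (SE 0.14, unadjusted p 0.0097). GNAI3, encoding an inhibitory G protein subunit, had a log2 fold change of 0.20 (SE 0.097, unadjusted p 0.047).

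Genes that usually report Gq and calcium signalling gave no call. RGS2, an inhibitor of Gq that is itself induced by Gq signalling in many cells, measured 2.54, 3.35, 4.02 and 5.62 FPM in control and 1.90, 3.20, 1.83 and 3.41 FPM in AngII libraries. The groups overlapped, and the fold interval ran from 0.42 to 1.01. RCAN1, the calcineurin inhibitor whose promoter window is shown above, measured 16.9, 24.1, 27.0 and 30.6 FPM in control and 25.5, 31.9, 24.7 and 33.1 FPM in AngII libraries. Its interval ran from 0.945 to 1.4005, with a log2 fold change of 0.47 (SE 0.19) in the first library series and -0.02 (SE 0.18) in the second. RGS10, another RGS protein, averaged 12.7 ± 1.31 FPM in control and 10.2 ± 0.175 FPM in AngII libraries (unadjusted p 0.033). Of 18 tested RGS and calcineurin genes, 11 were inside 1.5-fold and 16 inside 2-fold.

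Immediate early genes sat low in both groups, which left wide intervals. Of 31 listed, 27 were tested, 0 were called, 0 had higher and 1 had lower values at p below 0.05, and the median was 0.019. Inside 1.5-fold were 16 of the 27, and inside 2-fold 19. EGR1, a zinc finger factor, measured 1.39, 1.91, 2.87 and 2.81 FPM in control and 3.04, 4.001, 2.33 and 3.67 FPM in AngII libraries. The groups overlapped in 1 AngII library, the log2 fold change was 0.50 (SE 0.27) and its interval ran from 0.96-fold to 2.09-fold. Within the first library series the difference was 1.06 (SE 0.34) and within the second 0.02 (SE 0.31).

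FOS, an AP-1 subunit, rested on 3 to 9 counts per control and 6 to 11 counts per AngII library. It measured 0.69, 0.80, 0.96 and 1.49 FPM in control and 1.14, 1.44, 1.83 and 1.84 FPM in AngII libraries, where 1 control library lay above 2 of the AngII libraries. The fold interval ran from 0.88 to 2.68. FOSB, another AP-1 subunit outside the naming rule, was counted 7 to 11 times per control and 10 to 14 times per AngII library. In FPM all its AngII libraries lay above all control libraries, as did those of 0.978% of all tested genes. Its log2 fold change was 0.63, with an unadjusted p above 0.05. ARC, an activity-regulated cytoskeletal gene, measured 0.69, 1.44, 1.15 and 3.14 FPM in control and 2.85, 1.28, 2.50 and 1.57 FPM in AngII libraries, with an interval from 0.71 to 2.11. NAB2, the corepressor of EGR factors, measured 7.86, 5.74, 4.02 and 6.12 FPM in control and 7.04, 5.60, 8.84 and 3.15 FPM in AngII libraries, with an interval from 0.79 to 1.49. At this depth such genes would have needed a change well above 2-fold to pass the correction. IER3, an anti-apoptotic ERK substrate named after its values were seen, gave the lower value at p below 0.05: 8.33, 2.87, 3.83 and 4.47 FPM in control and 3.23, 1.28, 3.002 and 1.31 FPM in AngII libraries, with overlapping groups.

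Abundant immediate early genes were bounded much more closely. JUN and MYC are named here after their values were seen. JUN, an AP-1 subunit, had a log2 fold change of -0.03 and a fold interval from 0.84 to 1.14, and the growth regulator MYC 0.00 with an interval from 0.89 to 1.12.

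Genes that feed back on ERK gave no call either. Of 23 listed, 19 were tested, 0 were called and 11 were inside 1.5-fold. At p below 0.05, 2 (10.5%) had higher and 0 lower values, against 2.21% and 2.33% of all genes. At any p 14 were higher and 5 lower, with a median of 0.059. The list was not tested as a set. DUSP6 was counted 2 to 8 times per control and 3 to 6 times per AngII library, and SPRY4 not at all in AngII and 3 times in 1 control library. ERRFI1, which inhibits the EGF receptor kinase, measured 15.96, 17.5, 14.6 and 14.7 FPM in control and 20.9, 17.3, 18.7 and 21.3 FPM in AngII libraries. Its log2 fold change was 0.31 (SE 0.12, unadjusted p 0.019) and the groups overlapped by 1 library. The other higher gene, outside the naming rule, was the dual-specificity phosphatase gene DUSP5, with a log2 fold change of 0.61. DUSP5 was counted 8 to 13 times per control and 8 to 20 times per AngII library, with overlapping groups. SPRED2, an inhibitor of the ERK cascade named after its values were seen, had an interval from 0.95-fold to 1.29-fold.

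The direct test of AngII against EGF libraries, which shares no control library, gave differences in these same gene families. Of 18618 genes, 171 (0.918%) were called lower with AngII than with EGF and 82 (0.44%) higher. Among the immediate early genes EGR1, NAB2, FOS, EGR3 and ARC were called lower, and among the ERK feedback genes DUSP4, DUSP5, SPRED1, SPRED2 and ETV5. FOS, EGR3, ARC and ETV5 passed the count filter only through the libraries that received EGF, so their calls were largely set by that filter. Among members that also passed it in the AngII and control libraries alone, 2 of 23 immediate early genes and 4 of 16 ERK feedback genes were called lower. The share called lower over all 16984 genes that passed it there was not taken. With the lists also chosen knowing earlier results of these data, the counts are description only. EGR1 measured 54.6, 54.7, 49.1 and 47.8 FPM in EGF libraries, and AngII minus EGF was -3.98 on the log2 scale (SE 0.19, adjusted p 9.8e-14 in edgeR's quasi-likelihood test). FOS measured 4.96, 5.53, 3.79 and 6.18 FPM there, with a difference of -1.72 (SE 0.30). The corresponding differences were -2.96 for EGR3, -2.25 for ARC, -2.21 for NAB2 and -1.35 for SPRED2.

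**Figure D3:**
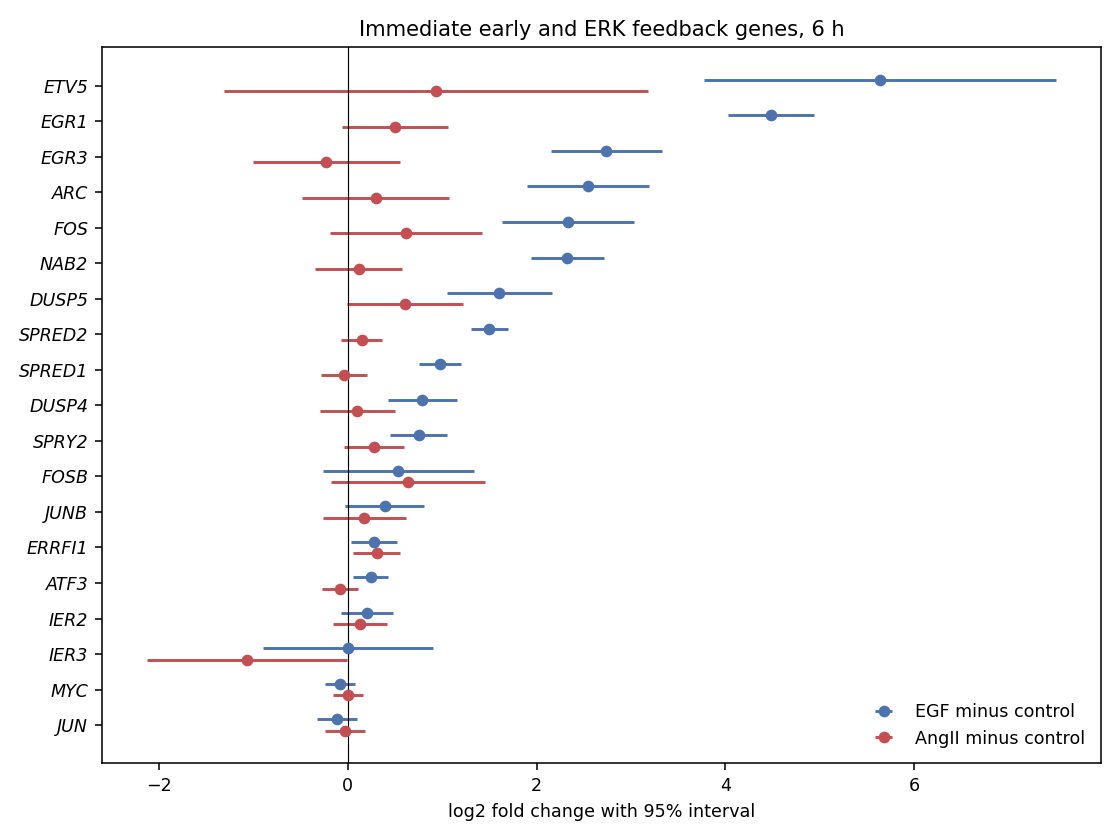
Log2 fold change against Control (x axis) with 95% intervals for 19 immediate early and ERK feedback genes in EGF and in AngII libraries, 4 libraries each, both set against the same 4 control libraries. AngII intervals of EGR1 (0.50), FOS (0.62) and NAB2 (0.11) include 0 while their EGF estimates lie at 4.48, 2.34 and 2.32.

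The genes of the SRF axis gave no call. Of 30 listed, 26 were tested, 2 had lower values at p below 0.05, the median was -0.027, and 21 were inside 1.5-fold and all 26 inside 2-fold. SRF measured 68.0, 67.1, 72.2 and 79.1 FPM in control and 65.8, 63.5, 71.4 and 64.8 FPM in AngII libraries, with overlapping groups. Its interval ran from 0.82-fold to 1.05-fold. ACTG1 averaged 1208 ± 124 FPM in control and 1181 ± 106 FPM in AngII libraries, with an interval from 0.87 to 1.098. FLNA averaged 1373 ± 163 and 1415 ± 168 FPM, and its interval ran from 0.92 to 1.16. TPM4 averaged 109 ± 15.2 and 104 ± 8.51 FPM, with an interval from 0.83 to 1.08. These 3 genes are described for the windows shown above, not by the naming rule. The 2 lower ones were VCL, encoding vinculin (log2 fold change -0.14), and TAGLN2, encoding a transgelin (-0.15).

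Promoters that hold a CArG box were also compared as a class. A box within 250 bases before and 50 after the start was found on either strand in 1.29% of 27305 RefSeq promoters. A promoter was matched by symbol to 11351 tested genes, and 113 of these held a box. Of the 113 genes, 6 (5.31%) had higher and 1 (0.885%) lower values at p below 0.05, against 205 (1.81%) and 280 (2.47%) of the 11351, and the medians were -0.002 and -0.003. Inside 1.5-fold were 88 of 113 (77.9%), against 75.3% of all genes with a promoter. The 6 higher genes, outside the naming rule but for C6orf48, were C6orf48, AQP3, SPOPL, FOXP2, BCL2 and TRPC6.

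The other elements gave no call either. For the AP-1 element TGANTCA, 517 tested genes held a match and 14 had higher and 14 lower values at p below 0.05. For the EGR element GCGNGGGCG, held by 9.28% of promoters, 29 had higher and 35 lower values among 1746. For the CRE element TGACGTCA, bound by CREB and ATF factors, 2 (0.541%) had higher and 13 (3.51%) lower values among 370. At any p, 171 CRE genes were higher and 199 lower, and 55 CArG genes were higher and 58 lower. The classes were not tested as sets. A match describes the letters of the window, not a bound site.

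**Figure D4:**
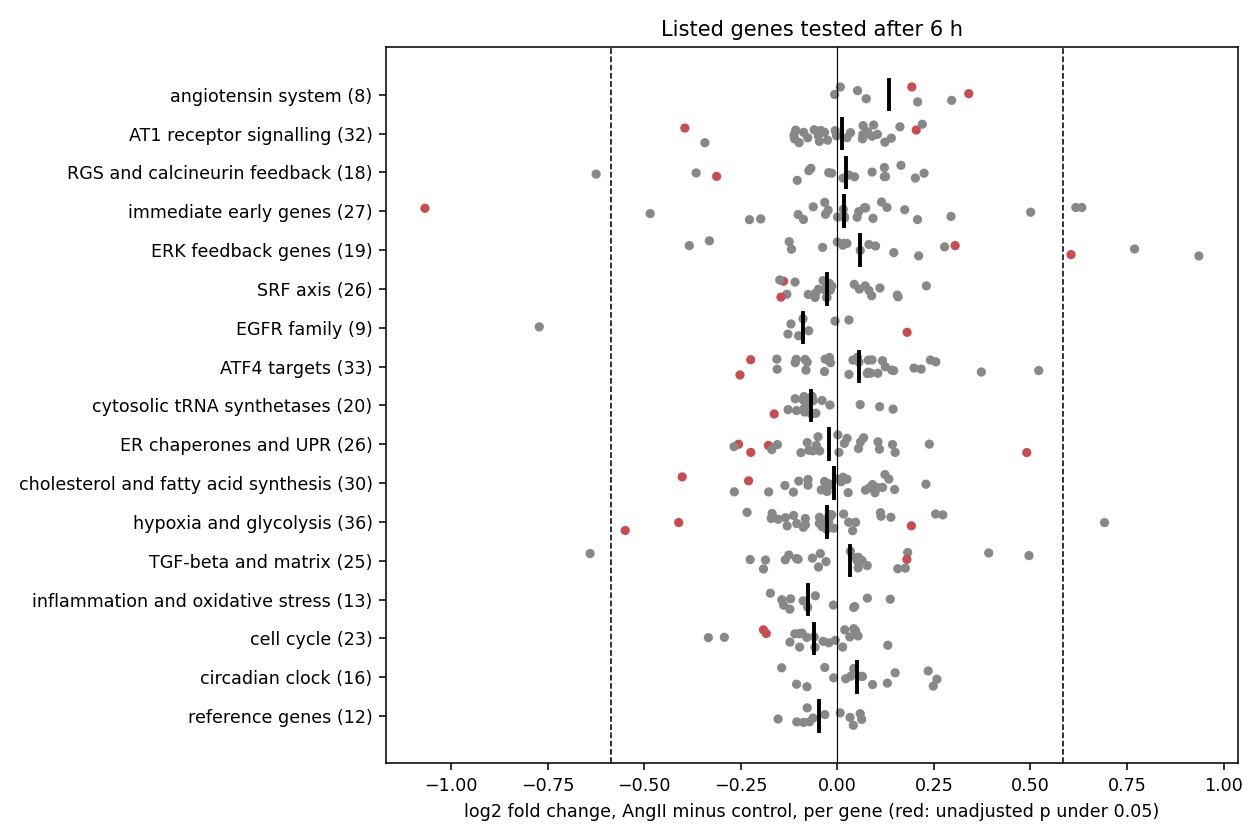
Log2 fold change of AngII against Control (x axis) of each tested member of the gene lists, 1 point a gene, red where the unadjusted p was below 0.05, with the list's median as a bar and dashed lines at 1.5-fold. List medians lie between -0.089 for the EGFR family and 0.134 for the angiotensin system, close to the median of all tested genes.

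The EGF receptor system itself gave no call. Of 18 listed genes, 9 were tested, 8 of them with intervals inside 1.5-fold, and none of the 8 listed ligands reached the count filter. ADAM10, a protease that sheds EGF receptor ligands, had a log2 fold change of 0.18 at p below 0.05.

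Metabolic and stress programmes were measured well and stayed within narrow limits. All 20 tested cytosolic tRNA synthetases, 28 of 33 ATF4 targets, 23 of 26 ER chaperone and unfolded protein response genes, 28 of 30 cholesterol and fatty acid genes and 29 of 36 hypoxia and glycolysis genes were inside 1.5-fold, and 0 of these genes were called. ASNS, asparagine synthetase and an ATF4 target, measured 60.1, 62.5, 61.9 and 65.0 FPM in control and 54.8, 65.0, 59.7 and 67.7 FPM in AngII libraries. HSPA5, the ER chaperone BiP, measured 277, 204, 218 and 223 FPM in control and 220, 217, 214 and 212 FPM in AngII libraries. The groups overlapped for both genes, and the intervals ran from 0.88 to 1.104 and from 0.83 to 1.06.

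At an unadjusted p below 0.05, more single members of these lists were lower than higher. By list, 5% to 11.5% were lower and 0% to 3.85% higher, against 2.33% and 2.21% of all genes. The lists were not tested as sets. Lower were ATF4 (-0.25) and its target EIF4EBP1 (-0.22), the seryl-tRNA synthetase SARS (-0.16), the ER lectin chaperone CALR (-0.26), the disulfide isomerases PDIA3 (-0.22) and PDIA6 (-0.18), the sterol demethylase CYP51A1 (-0.40), the acetoacetyl-CoA thiolase ACAT2 (-0.23), the aldolase ALDOC (-0.55) and the vasodilator peptide gene ADM (-0.41). Higher were the ER co-chaperone DNAJB9 (0.49) and the hypoxia factor HIF1A (0.19). None reached an adjusted p below 0.987. All kept their direction over the alternatives, but sizes varied, from -0.36 to -0.066 for CALR and from -0.32 to -0.105 for ATF4. Against EGF, 9 of 36 hypoxia and glycolysis genes were called lower with AngII, where 0.918% of all genes were, among them NDRG1, SLC2A1, SLC2A3, HK2 and LDHA. The list was chosen with earlier results of these data known, so that count is description.

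Genes known as outputs of AngII in vessel, heart and kidney gave no call either. Of 25 tested TGF-beta and matrix genes 18 were inside 1.5-fold and 1 had a higher value at p below 0.05, SKI, a repressor of SMAD signalling (0.18). All 13 tested inflammation and oxidative stress genes were inside 1.5-fold, but 13 of the 26 listed could not be tested, among them the chemokine gene CCL2 with no count in any of the 8 libraries. Of 23 cell cycle genes 21 and of 16 clock genes 11 were inside 1.5-fold, and 23 and 16 inside 2-fold. All 12 reference genes were inside 1.5-fold. Over the 370 tested genes of all these lists, 9 (2.43%) had higher and 17 (4.59%) lower values at p below 0.05, against 2.21% and 2.33% of all genes. Of the 370, 301 were inside 1.5-fold and 350 inside 2-fold. Compared with EGF, 30 were called lower and 1 higher, where 0.918% and 0.44% of all genes were. Members and lists were chosen with earlier results of these data known, so these counts are description and no independent support. The 30 include FOS, EGR3, ARC and ETV5, which passed the count filter only through the libraries that received EGF. The higher one was DBP, a clock output factor.

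The genes with the smallest p above 5 FPM were mixed in kind. TBC1D3B, of a multicopy gene family whose reads could be split between copies, measured 22.2, 20.6, 23.8 and 19.2 FPM in control and 28.1, 33.4, 37.2 and 31.0 FPM in AngII libraries. The groups did not overlap, with a log2 fold change of 0.61 (SE 0.15). TMBIM4, a Golgi membrane protein of the Bax inhibitor family, measured 25.4, 19.6, 22.4 and 24.97 FPM in control and 16.2, 17.4, 13.8 and 15.2 FPM in AngII libraries. The log2 fold change was -0.55 (SE 0.13), and TMBIM4 was lower by a like amount in EGF libraries, at -0.52 (SE 0.12, adjusted p 0.013). AngII minus EGF was -0.04 (SE 0.13), and both differences share the control libraries.

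GPX4, the lipid peroxide-reducing glutathione peroxidase, measured 96.0, 70.3, 72.2 and 79.6 FPM in control and 57.3, 64.0, 68.2 and 60.1 FPM in AngII libraries, and MRPL14, a mitochondrial ribosomal protein, 48.3, 36.5, 41.8 and 48.3 FPM and 27.4, 35.4, 32.7 and 34.6 FPM. The groups did not overlap for either. They did not overlap either for ZBTB12 (0.60) and AIDA (0.29) among the higher and TRMT12 (-0.43) among the lower genes, but did for SLC39A7, a zinc transporter of the ER (0.48). Since genes were chosen here by smallest p in the same libraries, groups without overlap largely follow from that choice and add no support. Over all tested genes, AngII libraries lay wholly above control for 0.978% and wholly below for 1.16%. Pseudogenes and multicopy loci made up much of the rest, including DUX4L8, GLUD1P3, PAIP1P1 and UBBP4, whose counts may belong in part to their parent genes. AC005537.2 had the largest fitted difference of them (-2.49), with 6.29 FPM and an SD of 7.62 in control libraries.

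Abundant ribosomal protein genes lay on the lower side. Of 82 tested, a class formed after the data were seen, 0 had higher and 17 (20.7%) lower values at p below 0.05, against 2.21% and 2.33% of all genes, the median was -0.115, 70 were inside 1.5-fold and all 82 inside 2-fold. Ribosomal protein genes took 3.52% of counts in Control 1 and 2.85% to 2.97% in the other controls, and 2.55% to 2.86% in AngII libraries. Without Control 1, 8 of 82 had lower values at p below 0.05 and the median was -0.082, and leaving out AngII 1 or AngII 3 left 9 and 12 such genes. Without Control 2 or AngII 4 there were 26 and 27. Of 52 histone genes 8 (15.4%) had lower values at p below 0.05 with a median of -0.174, and 0 without Control 1, with a median of -0.065. There were 1 and 2 such histone genes without AngII 1 or AngII 3, and 13 and 14 without Control 2 or Control 3.

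Depth and composition varied within both groups. Control libraries held 4445377 to 6168318 and AngII libraries 3881841 to 6235826 counts in genes. Control 1 stood apart on the first principal component, and misc_RNA genes took 1.43% to 1.52% of counts in AngII 1 and 3, 2.98% to 2.99% in AngII 2 and 4, and 2.11% to 2.60% in controls. With the misc_RNA percentage as a covariate or without Control 1, 0 genes were called. The part of library composition in the single-gene values was not tested. The 9 HEK293 markers, 8 of them tested, summed to 1369 to 1462 FPM in control and 1283 to 1477 FPM in AngII libraries, led by NEFL, NEFM and VIM. Leukocyte markers summed to 3.31 to 4.86 and 3.94 to 6.85 FPM. Fibroblast markers were higher, at 33.3 to 63.4 FPM in control and 36.5 to 38.3 FPM in AngII libraries. Vascular smooth muscle markers summed to 50.01 to 76.3 FPM in control and 49.6 to 69.2 FPM in AngII libraries. Of these 6 smooth muscle markers, 4 were detected in all libraries of each group. The 37 mitochondrially encoded genes were listed at 0 in all libraries.

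**Figure D5:**
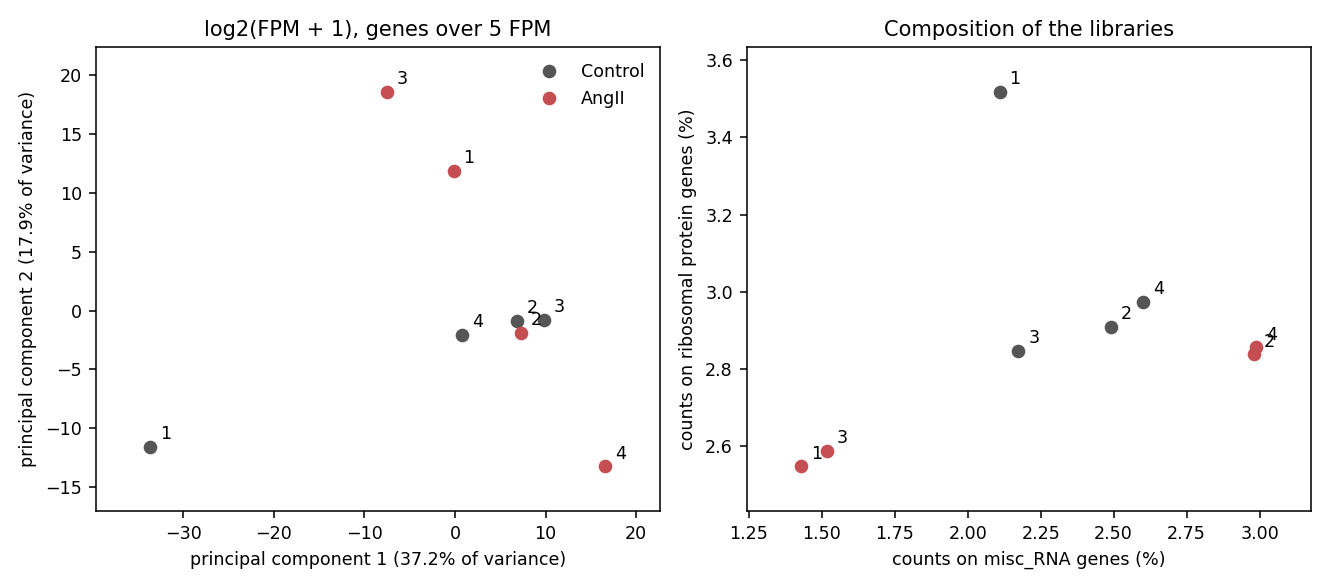
Left, the first 2 principal components of log2(FPM + 1) over genes above 5 FPM for the 8 libraries (37.2% and 17.9% of the variance), with Control and AngII libraries numbered. Right, percent of counts in misc_RNA genes (x axis) against percent in ribosomal protein genes (y axis), where Control 1 sits highest at 3.52%.

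No gene was found whose AngII effect differed between both library series. The interaction of AngII with library series left 0 genes with an adjusted p below 0.05 in edgeR, 327 genes at an unadjusted p below 0.05, and 0 genes in DESeq2. Without a low-count filter, edgeR gave 24 such genes. The 8 libraries were split by group and series, so the test could miss large differences and does not show that effects were equal.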

How the data were processed

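The deposited table held raw read counts per Ensembl gene for the 6 h libraries, with no normalization. The submitters' processing notes name Trim Galore. Per the study's methods the authors removed adaptors with cutadapt 1.8.1, aligned them to hg19 with TopHat2 2.0.14 and counted them with featureCounts 1.4.6, while the design text names HISAT2 as aligner. RNA had been depleted of ribosomal RNA. The strand setting is not given in the sources used here, and multicopy genes depend on how shared reads were counted.

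The counts of all 16 libraries of 6 h (4 conditions) were fitted in edgeR 4.0.16 (R 4.3.3) with TMM scaling, filterByExpr and the quasi-likelihood F test. A gene was called at a Benjamini-Hochberg FDR below 0.05, a fold change above 1.5 and a mean above 5 FPM. Intervals are 95% Wald intervals from that fit. Single values were tested by exact two-sided permutation, which cannot go below p = 0.0286 with 4 against 4. Totals of 3881841 to 6235826 counts set the precision. The scripts were tested on simulated data.

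Alternatives were the 8 libraries alone, library series as a block, DESeq2 1.42.0 and its size factors, no low-count filter, no FPM and fold filters, an FDR of 0.01, the exact test, limma voom, robust estimation, protein-coding genes only and leaving out each library. The misc_RNA covariate and the ribosomal protein and histone classes were chosen after seeing the data. Named were AGTR1, per list the 3 members above 5 FPM with the largest difference and those at p below 0.05, a fixed set of 13 signalling genes, and the 10 genes on each side with the smallest p above 5 FPM. A few items are not reported here. Members and lists were chosen with earlier results of these data known. Promoters were matched by symbol, using the first entry listed.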

Additional observations from a re-analysis of the deposited data

Results flagged for a closer look

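In 16 of the 210 sets of 4 values examined (7.62%), the highest or lowest library stood apart from the other 3, its gap to the nearest one, as a ratio to the whole range, exceeding Dixon's critical value at 95%. Chance gives about 1 in 20.

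Control 1 was the library apart in 7 of these. It was highest for RP4.706A16.3 (ratio of gap to range 0.922, at 599.7 FPM against 308.8 to 331.6), RP11.572P18.1 (0.917), AC139100.2 (0.833), ARRB1 (0.851, at 20.8 FPM against 15.8 to 16.5) and the focal adhesion gene TLN1 (0.895), and lowest for the prorenin receptor ATP6AP2 (0.95, at 42.1 FPM against 51.4 to 51.8) and for ADAM10 (0.871). Without Control 1 the log2 fold change of ARRB1 was -0.30, against -0.39 with it.

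Among the other controls, Control 3 was highest for C6orf48 (0.964) and Control 4 held the only counts of SPRY4 (1).

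In the AngII group, AngII 3 was highest for EGR3 (0.931, at 1.33 FPM against 0.76 to 0.80), ARRB1 (0.869) and KRT8 (0.844). AngII 4 was highest for AC005537.2 (0.862) and HIF1A (0.909) and lowest for ATF4 (0.865, at 157 FPM against 174 to 177). AngII 1 was lowest for TGFB1 (0.893).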

How the results depend on the processing

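Single libraries could not be paired because the labels give no replicate number shared between groups, only library numbers. With library series as a block, 0 genes were called and 935 had an unadjusted p below 0.05. Within a series, composition also varied with library number. Antisense genes took 2.46% and 2.90% of counts in Control 1 and 3, and 2.74% and 3.38% in Control 2 and 4. In AngII 1 and 3 they took 2.40% and 2.41%, and in AngII 2 and 4 3.48% and 3.49%. The series block does not take up that difference, and no fit of odd against even library numbers was run. With AngII against control, the count of 0 genes called held in every alternative but that without a low-count filter, which called 17 genes, with 90 at an FDR below 0.05. That filter-free fit tested 42566 genes and its estimate of the prior degrees of freedom was infinite against 11.2 otherwise, and 13 named genes passed an adjusted p of 0.05 there alone. It also gave 24 genes whose effect differed between library series, against 0. Genes at an unadjusted p below 0.05 numbered 496 (2.92%) in the fit of the 8 libraries alone and 1233 (6.48%) without Control 2, against 845 (4.54%). The number of genes with intervals inside 1.5-fold stayed between 10190 and 11614, but the fits tested from 13237 to 42566 genes, so the shares differed. The median half-width was 0.748 over the 42566 genes without the filter and 1.41 over the 42563 genes of DESeq2. With 1 library left out it was 0.340 to 0.368. Genes called between AngII and EGF numbered 842 without the FPM and fold filters, 162 at an FDR of 0.01, and 195 to 333 with 1 library left out, against 253. Below about 5 FPM, depth limits every statement.

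Leaving out 1 library turned the direction of 13 named genes, none of them called. The range of log2 fold changes with 1 library left out was -0.11 (AngII 3) to 0.28 for NAB2, which was also -0.02 without Control 3. It was -0.060 to 0.036 (AngII 1) for ASNS, also positive without Control 4, and -0.15 to 0.0049 (Control 1) for HSPA5. It was -0.030 (AngII 4) to 0.14 for ATP6AP2, -0.072 (AngII 3) to 0.35 for VARS, -0.011 (AngII 3) to 0.20 for MYH11 and -0.36 to 0.17 (Control 2) for ACTA2. Control 1 turned the remaining 6, with -0.23 to 0.011 for ADAM15, -0.41 to 0.069 for CRELD2, -0.35 to 0.20 for COL1A1, -0.14 to 0.023 for SDHA, -0.33 to 0.024 for KRT8 and -0.19 to 0.058 for COL3A1. The causes were not tested.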

Other observations

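AGTR1 was also measured in cells that received AngII on top of EGF. Its log2 difference between EGF+AngII and EGF libraries was 0.45 (SE 0.076), with 1414, 1451, 1568 and 1554 FPM against 1236, 1023, 1071 and 1059 FPM. All EGF+AngII libraries lay above all EGF libraries. The unadjusted p was 5.2e-06 and the adjusted p 0.093 in edgeR's quasi-likelihood test, the smallest of 18618 genes.

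A contrast chosen after these values were seen averaged the AngII difference over both contexts, without and with EGF. It gave 0.39 (SE 0.054), or 1.31-fold, for AGTR1, with an adjusted p of 0.0034, and AGTR1 was the only gene of 18618 at an FDR below 0.05. At an unadjusted p below 0.05 there were 727. The difference between both contexts was 0.11 (SE 0.11, unadjusted p 0.33), and 0 genes differed between contexts at an FDR below 0.05. AGTR1 took 0.092% to 0.118% of counts in control, 0.132% to 0.149% in AngII, 0.101% to 0.126% in EGF and 0.140% to 0.151% in EGF+AngII libraries.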
